A study of Mus musculus with 8 samples.

Results

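Krüppel-like factors (KLFs) are a family of transcription factors, and the RNA-seq data were examined here for 9 of their genes, Klf12, Klf3, Klf2, Klf4, Klf6, Klf7, Klf9, Klf10 and Klf13, in CD11b+ brain cells of mice that overexpress colony-stimulating factor 1 (CSF1). The 9 genes were taken by name from the 20308 gene symbols in the count tables, which hold 17 Klf symbols. The set was built around Klf12 because its transcript was lower in the CSF1 overexpressing mice, so the genotype difference of Klf12 and of the other 8 genes is given as a description and not as a test result. All 9 had enough counts to enter the comparison, as did 13407 genes in total.

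The CSF1 OE mice carry a transgene for the secreted form of CSF1 that is switched on in a subset of GFAP+ cells through the TRE/tTA system, and the comparison group was control mice for that line. Both groups were F1 animals of a C57Bl/6 by CD1 cross and were aged P14 or P15, and the labels do not say which of these ages each mouse had. CD11b, a surface protein of microglia and other myeloid cells, was used to pull cells from the right brain hemisphere with magnetic beads after myelin had been removed on Percoll. Each of 4 control mice (animals 1827, 1872, 1874 and 1934) and 4 CSF1 OE mice (animals 1931, 1932, 1936 and 2019) gave 1 library. The transgene is driven in cells other than those pulled down, so its own level in these libraries is no check of the genotype.

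KLF proteins bind GC-rich and CACCC-containing DNA with a set of C2H2 zinc fingers at the C-terminal end, and they differ in the part of the protein that recruits partners. KLF3 and KLF12 bind the corepressor CtBP and act mostly as repressors. KLF2, KLF4, KLF6 and KLF7 act mostly as activators, while KLF9, KLF10 and KLF13 bind the corepressor Sin3. In myeloid cells KLF2 and KLF4 are known as regulators of inflammatory activation and of monocyte maturation, and KLF2 and KLF4 are also prominent in vascular endothelium. Several Klf genes are induced rapidly when cells are stimulated or stressed.

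The promoters of the members are shown first because KLFs bind motifs that also lie in Klf promoters, and because the window of Klf12 differed from the others in composition. RefSeq promoter windows (GRCm38.p6), each of 300 bases with 250 before and 50 after the transcript start, matched 8 of the 9 members, all but Klf10. The 250 bases before the start are printed for Klf12, for Klf3 as the other CtBP-binding member, and for Klf2 and Klf6 as the members with the highest levels. They run 5′ to 3′ on the strand of the gene, and capitals mark the CACCC motif and the GC box GGGCGG on either strand. The windows are chr14:100149797-100150046 on the minus strand for Klf12, chr5:64803271-64803520 on the plus strand for Klf3, chr8:72318812-72319061 on the plus strand for Klf2 and chr13:5861239-5861488 on the plus strand for Klf6.
Klf12: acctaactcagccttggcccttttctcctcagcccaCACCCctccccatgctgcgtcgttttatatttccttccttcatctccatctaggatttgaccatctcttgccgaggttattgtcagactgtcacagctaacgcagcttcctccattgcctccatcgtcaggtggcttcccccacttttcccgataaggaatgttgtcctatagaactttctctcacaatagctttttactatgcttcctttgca
Klf3: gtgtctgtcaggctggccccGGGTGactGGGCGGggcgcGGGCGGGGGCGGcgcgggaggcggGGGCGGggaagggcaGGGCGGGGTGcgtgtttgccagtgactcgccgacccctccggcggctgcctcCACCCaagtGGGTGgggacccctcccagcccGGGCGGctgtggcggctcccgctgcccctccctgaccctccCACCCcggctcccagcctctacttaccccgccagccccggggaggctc
Klf2: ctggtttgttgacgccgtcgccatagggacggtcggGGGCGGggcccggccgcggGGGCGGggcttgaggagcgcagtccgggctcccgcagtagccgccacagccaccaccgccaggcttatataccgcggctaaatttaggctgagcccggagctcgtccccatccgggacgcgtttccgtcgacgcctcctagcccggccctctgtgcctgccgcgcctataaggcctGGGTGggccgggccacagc
Klf6: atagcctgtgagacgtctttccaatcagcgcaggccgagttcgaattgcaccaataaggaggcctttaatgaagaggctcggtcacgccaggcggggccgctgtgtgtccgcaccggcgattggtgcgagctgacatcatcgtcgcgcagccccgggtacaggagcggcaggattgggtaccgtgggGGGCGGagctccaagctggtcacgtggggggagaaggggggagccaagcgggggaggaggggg

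The Klf12 window stood apart in composition. Over the full 300 bases it was 45.7% G or C, against 58.3% to 76.7% in the other 7 member promoters and a median of 52.7% over all 32851 promoters of the table. The Klf12 window lies inside the span of its GENCODE M21 gene model, chr14:99870632-100284679, so that longer transcripts of the gene start upstream of it. The Klf7 window, chr1:64121340-64121639, likewise lies inside its gene model, chr1:64029447-64122282. Whether these windows act as promoters was not tested, so the composition of the Klf12 window is not read as a promoter trait of Klf12. The Klf12 window held 1 CACCC motif, starting 214 bases before the transcript start, and no GC box. The Klf3 window held 5 CACCC motifs and 6 GC boxes, and 1 of each overlapped. The Klf2 window held 2 GC boxes and 1 CACCC motif, and the Klf6 window held 1 GC box and no CACCC motif.

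Across the 8 matched members, CACCC occurred in 6 of the 300-base windows, against 57.5% of all promoters, and GGGCGG in 6 windows, against 35.7% of all promoters. A heat shock element, searched as GAANNTTC on both strands, occurred in the Klf12 window alone, 42 bases before the start, against 7.86% of all promoters. The TATA motif TATAAA, likewise searched on both strands, was also in the Klf12 window alone, against 13.6% of all promoters. This match lay 191 bases before the start and on the strand opposite to the gene. These are matches of letters and not measured sites of binding.

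The libraries were of like depth, with total expected counts from 12908195 to 15475488 in control and from 12053280 to 14356538 in CSF1 OE mice. The labelled cell type was checked with 10 microglia genes, whose summed level ran from 21514 to 38374 CPM, a count scaled to a common library size, in controls and from 27734 to 39175 CPM in CSF1 OE mice. The scaling was to the TMM-normalized library size, for which edgeR assumes that most genes do not differ between mice. Transcripts of other cells were present, and the 12 endothelial genes summed to 1141 to 1875 CPM in controls and 532 to 1247 CPM in CSF1 OE mice. The 8 heat shock genes summed to 7071 to 10284 CPM in 3 control mice (1827, 1872 and 1934) and to 14348 CPM in CSF1 OE mouse 1932, against 958 to 1691 CPM in the other 4 mice, so this list divided the mice across the genotypes. Fewer cells of a type and less RNA per cell cannot be told apart in such bulk samples. Csf1 itself differed by a log2 fold change of 0.19 (SE 0.33) and its receptor Csf1r by 0.054 (SE 0.21), and the genotypes overlapped for both.

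The members covered a wide range of levels once each was divided by exon length. Mean levels over the 8 mice were 252 CPM per kilobase of exon for Klf6 and 236 for Klf2, which put each above 99.0% of the 12792 tested genes with a known length. The mean level of Klf4 was 97.4, that of Klf10 43.4, that of Klf13 12.4 and that of Klf3 9.35 CPM per kilobase. The lowest 3 mean levels were 3.82 for Klf9, 2.39 for Klf7 and 1.13 CPM per kilobase for Klf12, which lay above 18.2% of the tested genes. Of the summed levels per length of the 9 members, Klf6 made up 38.3% and Klf2 35.9%, while Klf12 made up 0.172%.

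**Figure D1:**
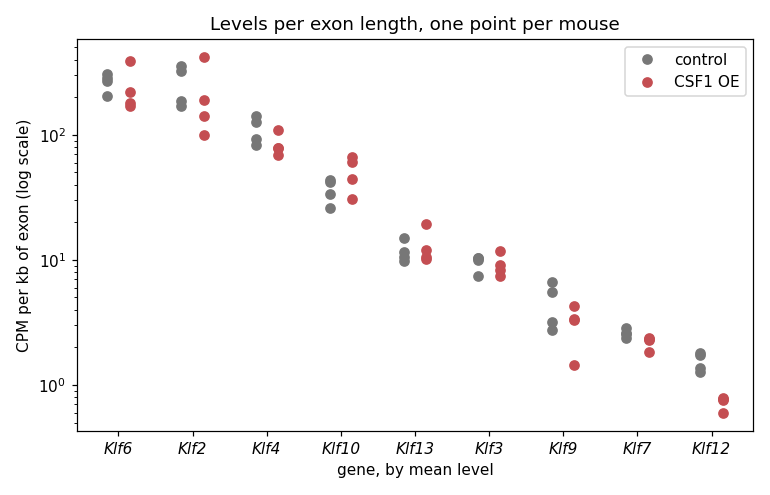
Level of each member in CPM per kilobase of exon (log scale), with 1 point per mouse, grey for control and red for CSF1 OE, ordered by the mean of all 8 mice. Klf6 and Klf2 lie at the top with means of 252 and 236, and Klf12 lies below all other members with a mean of 1.13 CPM per kilobase.

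Not every step in that order was larger than the spread between mice. Klf6 was above Klf2 in 5 of 8 mice and Klf13 above Klf3 in 6 of 8, and their ranges overlapped. The ranges of Klf2 and Klf4 and of Klf9 and Klf7 also overlapped, although Klf2 was above Klf4 in 8 of 8 mice and Klf9 above Klf7 in 7 of 8. The ranges did not overlap between Klf4 and Klf10, between Klf10 and Klf13, between Klf3 and Klf9, or between Klf7 and Klf12. With the longest transcript in place of all exons as the length, Klf3 and Klf13 changed places and the other 7 stayed.

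Klf12, also known as AP-2rep, a repressor of the AP-2 alpha gene Tfap2a, was the member with the clearest difference. The control mice had 12.6, 8.78, 12.02 and 9.52 CPM (animals 1827, 1872, 1874 and 1934). The CSF1 OE mice had 5.34, 5.51, 4.16 and 5.40 CPM (animals 1931, 1932, 1936 and 2019). Every CSF1 OE mouse was thus below every control mouse, and the gap between the genotypes, from 5.51 to 8.78 CPM, was wider than the range within CSF1 OE and narrower than that within controls. These values rest on 127 to 188 counts per control library and 61 to 75 per CSF1 OE library, and the expected counts of Klf12 were exactly whole, with a tolerance of 0, in all 8 libraries.

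Mean Klf12 expression was 10.7 ± 1.87 CPM in controls and 5.10 ± 0.633 CPM in CSF1 OE mice (SD, n = 4 each), a ratio of 0.475. The log2 fold change of CSF1 OE over control from edgeR was -1.07 (SE 0.18), with a Benjamini-Hochberg adjusted p of 0.0499. A gene was called when that adjusted p was under 0.05 and its fold change was under 0.7 or over the inverse of 0.7. Klf12 met both limits and was 1 of 7 genes called lower among the 59 called, which make up 0.440% of the tested genes in either direction and 0.0522% when counted as lower. The balance of directions, 52 higher and 7 lower here, depended on the fit, with 271 and 156 by DESeq2, 193 and 167 with the immediate early covariate and 303 and 971 with the term for animal numbers. Its adjusted p ranked 56 among all tested genes, called or not. Its fall was the largest of the 7 genes called lower after that of Apob. Jag1 had the same adjusted p of 0.0499, and just outside the limit lay Slc9a3r2 with an adjusted p of 0.0524 and a log2 fold change of -0.83. As the set was chosen on this difference, nothing is read from the call.

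**Figure D2:**
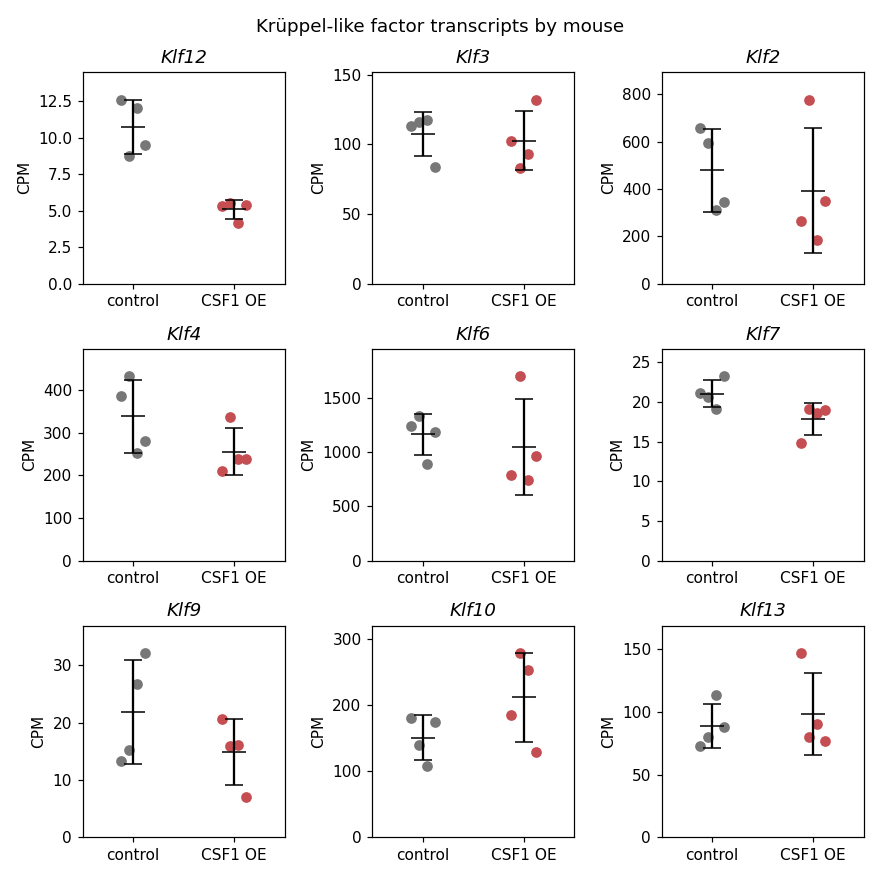
Transcript level of each member in CPM (linear axes that start at 0), with 1 point per mouse, a short bar for the mean and error bars of 1 SD (n = 4 per genotype). Only for Klf12 did the points of CSF1 OE mice, from 4.16 to 5.51 CPM, all lie below those of control mice, from 8.78 to 12.6 CPM.

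The size of the Klf12 difference changed little with the processing, whereas its call did. The log2 fold change lay between -1.19 and -0.98 in 19 alternatives, while the adjusted p of the fits ran from 1.14e-05 to 0.183 and the call was kept in 6 of the 19. Of these 6, 1 was the same fit without the fold threshold, in which the call could not be lost. Leaving out any 1 of the 8 mice ended the call, with edgeR adjusted p from 0.0534 to 0.183. Among mice numbered from 1931 to 1936, the control mouse had 9.52 CPM and the 3 CSF1 OE mice 4.16 to 5.51 CPM. Among the other mice, the 3 controls had 8.78 to 12.6 CPM and the CSF1 OE mouse 5.40 CPM. With a term for these ranges of animal numbers the log2 fold change was -0.98 (edgeR adjusted p = 0.0270).

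**Figure D3:**
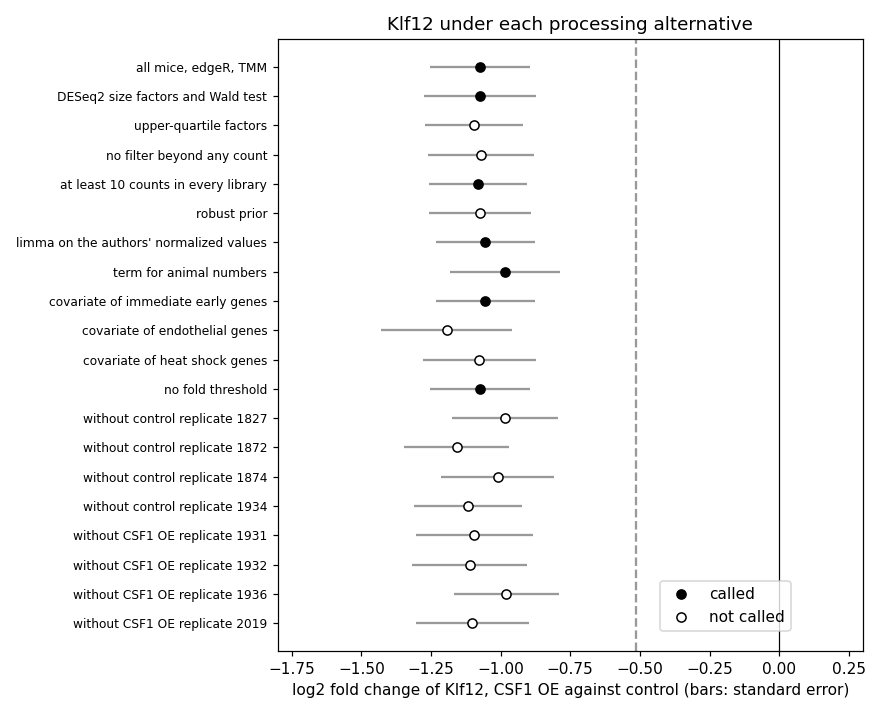
Log2 fold change of Klf12 (CSF1 OE over control) with its standard error in the comparison of all mice (top) and in 19 alternatives, with filled points where the gene was called and open points where it was not. The dashed line marks a fold change of 0.7, and all points lie to its left, between -1.19 and -0.98.

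Klf12 was also fitted beside the markers of endothelial cells and the heat shock genes, which differed between mice. With the endothelial genes as a covariate its log2 fold change was -1.19 (SE 0.24, edgeR adjusted p = 0.0561), and with the heat shock genes, a covariate added after seeing the data, it was -1.08 (SE 0.20, edgeR adjusted p = 0.0990). Genes of border macrophages, which also carry CD11b, summed to 1581 to 2505 CPM in controls and to 1266 to 1884 CPM in CSF1 OE mice. All 8 had a negative log2 fold change (median -0.47, 6 with an unadjusted p under 0.05, 0 called by edgeR and 2 by DESeq2). Such an unadjusted p was found for 16.5% of all genes tested by edgeR, and DESeq2 called 2.54% of the 16835 genes with any count. All 5 red blood cell genes also had negative log2 fold changes (median -1.58, 0 with an unadjusted p under 0.05, 0 called by either tool). The part of these cells in the Klf12 difference was not tested.

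Klf3, the other CtBP-binding member, is a repressor known from red blood cell and B cell development. Control mice had 113, 116, 117 and 83.6 CPM, and CSF1 OE mice had 102, 83.3, 93.2 and 132 CPM, each in the order of animals given above. Control mouse 1934 and CSF1 OE mouse 1932 were almost level, and the highest value of all was in a CSF1 OE mouse. The means were 108 ± 16.1 and 103 ± 21.1 CPM (SD, n = 4 each), and the log2 fold change came to -0.066 (SE 0.16), whose sign turned in 3 of 19 alternatives.

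Klf2, a factor of quiescent endothelium and lymphocytes, varied most. The control mice had 660, 595, 312 and 347 CPM, and the CSF1 OE mice had 263, 778, 186 and 348 CPM. The highest and the lowest value were both in CSF1 OE mice, animals 1932 and 1936, and all control values lay between them. The means were 479 ± 175 and 394 ± 265 CPM (SD, n = 4 each) and the log2 fold change was -0.28 (SE 0.44). It was -0.85 (SE 0.32) without CSF1 OE mouse 1932 and -0.043 (SE 0.41) without mouse 1936, and it also moved by over 1.5 times without control 1827 (-0.087), 1872 (-0.16) or 1874 (-0.44) or CSF1 OE mouse 1931 (-0.13).

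Klf4, known for its role in pluripotency and in monocyte differentiation, had 386, 432, 253 and 282 CPM in control mice. In CSF1 OE mice it had 210, 336, 238 and 239 CPM. All CSF1 OE mice but animal 1932 were below every control mouse, and that animal was within the control range. The means were 338 ± 85.0 and 256 ± 55.1 CPM (SD, n = 4 each), and the log2 fold change came to -0.40 (SE 0.20), or -0.26 without control mouse 1872.

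Klf6, a widely expressed factor that responds to injury and stimulation, had the highest mean level of the members in each genotype. Control mice had 1239, 1338, 892 and 1190 CPM. CSF1 OE mice had 787, 1700, 746 and 969 CPM. CSF1 OE mouse 1932 was again the highest of all, and animals 1931 and 1936 were below all control mice. The means were 1165 ± 192 and 1050 ± 444 CPM (SD, n = 4 each), and the log2 fold change came to -0.15 (SE 0.27). It was -0.48 (SE 0.17) without CSF1 OE mouse 1932, -0.012 (SE 0.27) without 1936 and -0.031 without 1931, and it also moved by over 1.5 times without control 1872 (-0.074) or 1874 (-0.26).

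Klf7, which is best known in neurons, was low and steady. It had 21.2, 20.6, 19.1 and 23.2 CPM in control mice and 14.9, 19.2, 18.6 and 18.9 CPM in CSF1 OE mice. The genotypes overlapped by a narrow margin, as CSF1 OE mouse 1932 with 19.18 CPM lay just above control mouse 1874 with 19.13 CPM. The log2 fold change was -0.23 (SE 0.12), or -0.15 without CSF1 OE mouse 1931. The antisense gene Gm26649 shares 3196 exon bases with Klf7 in the annotation. The library kit does not mark the strand, so reads of that gene would count for Klf7. The same limit holds for Klf3, with which Gm20033 on the opposite strand shares 404 exon bases.

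Klf9, a gene induced by glucocorticoid and thyroid hormone, had 13.3, 15.3, 26.8 and 32.1 CPM in control mice. The CSF1 OE mice had 20.6, 15.9, 16.1 and 6.99 CPM. CSF1 OE mouse 2019 was the lowest of all, and the 2 highest values were in control mice 1874 and 1934. The means were 21.9 ± 9.05 and 14.9 ± 5.70 CPM (SD, n = 4 each), and the log2 fold change came to -0.55 (SE 0.37), or -0.29 without control mouse 1934 and -0.32 without CSF1 OE mouse 2019. Klf9 depended on what else was in the fit, with a log2 fold change of -1.11 (edgeR adjusted p = 0.0366, called, as were 9.50% of all tested genes) with the term for animal numbers and of 0.35 (edgeR adjusted p = 0.507) with the endothelial covariate. Within the animal numbers from 1931 to 1936 the control mouse had 32.1 CPM and the CSF1 OE mice 15.9 to 20.6 CPM, and among the others the controls had 13.3 to 26.8 CPM and the CSF1 OE mouse 6.99 CPM.

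Klf10, an early target of TGF-beta signalling, was 1 of the 2 members with a positive difference. Control mice had 180, 140, 108 and 175 CPM, and CSF1 OE mice had 186, 279, 254 and 129 CPM. The 3 CSF1 OE mice from animals 1931 to 1936 were above every control mouse, while animal 2019 was below 3 of them. The means were 151 ± 33.6 and 212 ± 67.8 CPM (SD, n = 4 each), and the log2 fold change came to 0.49 (SE 0.25). With the term for animal numbers it was 0.15 (SE 0.23), and with the endothelial covariate 0.79 (SE 0.28).

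Klf13, which activates the chemokine gene Ccl5 in T cells, was the other. It had 73.2, 79.9, 114 and 87.8 CPM in control mice and 147, 79.9, 90.5 and 77.2 CPM in CSF1 OE mice. The log2 fold change of 0.15 (SE 0.22) was -0.10 without CSF1 OE mouse 1931, 0.30 without control 1874 and 0.035 with the term for animal numbers.

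In total, 7 of the 9 members had a negative and 2 a positive log2 fold change, and their median was -0.23, against -0.034 over all tested genes. One member, Klf12, was called, and 0 of the other 8 were. The genotypes did not overlap for Klf12 and overlapped for the other 8, whereas they did not overlap for 10.3% of all tested genes, or for 3.45% counted as lower in CSF1 OE.

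The members also differed in how much they varied between mice of 1 genotype. The within-genotype SD on the log2 CPM scale was 0.73 for Klf2 and 0.64 for Klf9, higher than for 92.6% and 89.0% of tested genes. It was 0.43 for Klf10, 0.42 for Klf6, 0.36 for Klf13, 0.33 for Klf4 and 0.26 for Klf3. Klf12 with 0.22 was at the median of all genes, which was also 0.22, and Klf7 with 0.15 was the steadiest. The Klf12 value rests on 61 to 75 counts per CSF1 OE library and 127 to 188 per control library. The part of counting noise in this spread, and in the correlations of Klf12 below, was not tested.

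To see which members varied together, the deviations of log2 CPM from the genotype means were correlated over the 8 mice, which leaves out the genotype difference that chose Klf12. Relations of Klf12 with the other members had r between -0.27 and 0.36 over 8 relations (exact permutation within genotype, two-sided, adjusted p = 0.833 for each). The genes nearest to Klf12 by this measure among 13101 genes were Zfp426 (r = 0.99), Ifrd2 (0.97), Mplkip (0.94), Cdc42bpg (0.92) and Hmces (0.92), given as a description over 8 mice. Of the 13101 genes, 12 had an r over 0.9. These are the top values of many compared over few mice. Whether they exceed chance was not tested, and no shared regulation is read from them.

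The activators Klf2, Klf4 and Klf6 had the highest positive Pearson correlations among the 36 pairs. For Klf2 and Klf6, Pearson's r was 0.93 (exact permutation p = 0.00347, adjusted p = 0.0938) and Spearman's rho 0.90 (exact permutation p = 0.0104), and r was 0.85 without the 2 mice farthest from the median of Klf2. For Klf4 and Klf6, r was 0.81 (exact permutation p = 0.00521, adjusted p = 0.0938) and rho 0.81 (exact permutation p = 0.0260), and r was 0.94 without the 2 mice farthest from the median of Klf4. For Klf2 and Klf4, r was 0.85 (exact permutation p = 0.0243, adjusted p = 0.219) and rho 0.81 (exact permutation p = 0.0347), and r was 0.71 without the 2 farthest mice. Negative relations of like size were those of Klf7 with Klf13 (r = -0.85, rho -0.48, exact permutation p = 0.0486 and 0.286, r = -0.98 without the 2 farthest mice) and of Klf3 with Klf10 (r = -0.83, rho -0.76, p = 0.0174 and 0.0295, r = -0.84 without them). Klf9 and Klf13 had a rho of 0.90 (exact permutation p = 0.0122) with an r of 0.68 (p = 0.113, and r = 0.84 without the 2 farthest mice). None of the 36 pairs passed the adjustment of the Pearson p, and the smallest p that these 576 permutations allow is 0.00174.

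**Figure D4:**
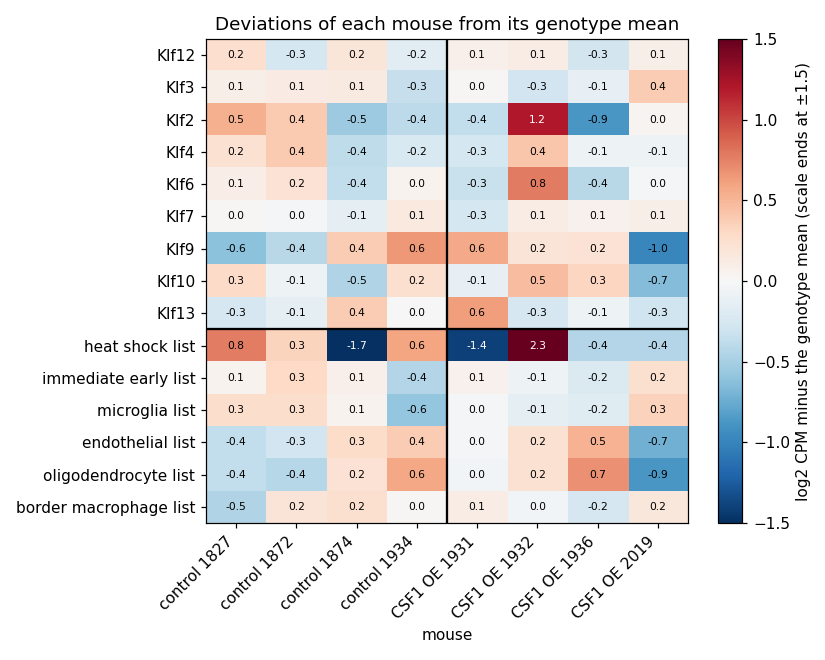
Deviation of log2 CPM from the genotype mean for each member (upper rows) and for the mean of each of 6 gene lists (lower rows) in each mouse, red above and blue below the mean. Klf2 and Klf6 were highest in CSF1 OE mouse 1932, as was the heat shock list, while Klf12 deviated by at most 0.28 in any mouse.

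Klf2, Klf4, Klf6 and some other members were correlated with the heat shock list over the 8 mice, but no relation with it passed the adjustment. Over 45 relations of the 9 members with 5 lists, added after seeing the data, r with the heat shock list was 0.92 for Klf6 (rho 0.79, exact permutation p = 0.0382 and 0.0573), 0.80 for Klf4 (rho 0.79, p = 0.0208 and 0.0417) and 0.80 for Klf2 (rho 0.67, p = 0.0521 and 0.128). Without CSF1 OE mice 1931 and 1932, the farthest from the median of the list, these r were 0.79, 0.65 and 0.55. The adjusted p over all 45 relations was 0.234 for each. Klf10 (r = 0.69, rho 0.79, exact permutation p = 0.120 and 0.0174) and Klf7 (r = 0.70, rho 0.64, p = 0.0903 and 0.0833) also had positive correlations with the list, and Klf13 a negative one (r = -0.72, rho -0.52, p = 0.128 and 0.238). Without the same 2 mice their r were 0.61, 0.79 and -0.88, and their adjusted p over the 45 were 0.445, 0.369 and 0.445. With the heat shock genes as a covariate, the log2 fold change was 0.0032 for Klf2 (SE 0.28), 0.068 for Klf6 (SE 0.14) and -0.22 for Klf4 (SE 0.15). Of the 8 heat shock genes, 7 had negative and 1 had positive log2 fold changes, from Hspb1 (log2 fold change -0.85, SE 0.84) to Hspe1 (0.17, SE 0.36), and 0 were called by edgeR or DESeq2 or had an unadjusted p under 0.05 in edgeR.

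Of the relations with the other 4 lists, none passed the adjustment of the Pearson p over the 45. For Klf3, r was 0.89 with the microglia list (rho 0.90, exact permutation p = 0.0226 and 0.0399), and it was 0.29 without control mouse 1934 and CSF1 OE mouse 2019, so that the relation rested on those mice. The same held for Klf3 with the oligodendrocyte list (r = -0.82, rho -0.79, exact permutation p = 0.0330 and 0.0434), where r was -0.14 without them. For Klf9, r was 0.86 with the endothelial list (rho 0.76, exact permutation p = 0.0417 and 0.0521) and 0.85 with the oligodendrocyte list (rho 0.69, p = 0.0451 and 0.0799), and without the same 2 mice r was 0.54 and 0.42. With the microglia list r for Klf9 was -0.82 (rho -0.79, exact permutation p = 0.0191 and 0.0417), and -0.53 without them. For Klf10, r was -0.71 with the border macrophage list (rho -0.79, exact permutation p = 0.0486 and 0.00521), and r was -0.59 without the 2 farthest mice. Adjusted over the 9 relations with this list alone, the exact permutation p was 0.0469 for rho and 0.438 for r. The adjusted p of the Pearson relation was 0.234 in each of these. For Klf12, r with the 5 lists lay between -0.35 (oligodendrocyte list) and 0.36 (microglia list).

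The 18 immediate early genes, such as Fos and Egr1, were compared with the members because some Klf genes respond as fast. For Klf3, r with the list was 0.86 (exact permutation p = 0.0226, adjusted p = 0.203 over 9 relations) and rho 0.88 (exact permutation p = 0.0122, adjusted p = 0.109), and r was 0.79 without the 2 farthest mice. No member passed the adjustment, and r for Klf12 was 0.27. Between genotypes 11 of the 18 genes were lower and 7 higher, 0 were called by edgeR or by DESeq2, and 1, Nr4a2, had an unadjusted p under 0.05 (log2 fold change -0.59). Such an unadjusted p was found for 16.5% of all tested genes. The largest rise was that of Ier2 (0.38, SE 0.31).

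Of the other Klf and the Sp genes, the nearest relatives of the KLFs, 9 of 17 in the tables had enough counts to be tested. Klf11 had 45.5 to 67.6 CPM in controls and 32.7 to 76.1 CPM in CSF1 OE mice. Klf15 had 3.49 to 7.10 and 2.83 to 5.25 CPM, and Klf16 17.6 to 27.7 and 13.9 to 37.0 CPM. Sp1, the broadly expressed founder of the Sp genes, had 139 to 171 and 129 to 177 CPM. Log2 fold changes were negative for 6 and positive for 3, from -0.64 for Klf8 (SE 0.45) to 0.25 for Klf16 (SE 0.27). In edgeR 0 of the 9 were called and 0 had an unadjusted p under 0.05, and DESeq2 called 0. Klf17 had no counts in any library, which allows up to 3 counts per library, and Klf1, Klf5 and Klf14 had 12 counts or fewer.

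The 14 genes of KLF partner proteins were all tested, of which 9 had a negative and 5 a positive difference, 0 were called by edgeR or DESeq2 and 0 had an unadjusted p under 0.05 in edgeR. Ctbp2, which encodes the corepressor bound by KLF3 and KLF12, had the largest fall, with 69.5 to 83.3 CPM in controls and 55.0 to 69.2 CPM in CSF1 OE mice (log2 fold change -0.21, SE 0.10, edgeR adjusted p = 0.309). The genotypes were apart by a narrow margin, as the highest CSF1 OE value was 69.22 CPM and the lowest control value 69.47 CPM. Ctbp2 was the only 1 of the 14 without overlap, against 10.3% of all tested genes. Its paralog Ctbp1 had 111 to 126 and 123 to 133 CPM. The largest rise was that of the histone methyltransferase gene Ehmt2 (0.11, SE 0.11).

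Among genes known as KLF targets in other cell types, Thbd, Nos3 and Ccl5 did not overlap between the genotypes. The same held for 10.3% of all tested genes in either direction and for 3.45% counted as lower in CSF1 OE. Of 10 such genes 9 were tested, with 6 lower and 3 higher, 0 called by edgeR, 4 with an unadjusted p under 0.05 and 3 called by DESeq2. Over all genes tested by edgeR, 16.5% had such an unadjusted p, and DESeq2 called 2.54% of the 16835 genes with any count. As the list was chosen with earlier results of these data known, nothing is read from its counts against these shares. Thbd (thrombomodulin), a gene that KLF2 activates in endothelial cells, had 41.0, 46.8, 50.8 and 60.9 CPM in controls. It had 26.9, 34.1, 18.7 and 22.6 CPM in CSF1 OE mice. Every CSF1 OE mouse was below every control mouse, with a log2 fold change of -0.97 (SE 0.19, edgeR adjusted p = 0.0584). Nos3 (endothelial nitric oxide synthase), another KLF2 target, had 43.6, 50.6, 62.2 and 60.0 CPM in controls and 29.2, 29.2, 36.5 and 16.9 CPM in CSF1 OE mice, again with no overlap (log2 fold change -0.95, SE 0.22, edgeR adjusted p = 0.0842). Both are known as KLF2 targets in endothelium. All 12 endothelial marker genes had negative log2 fold changes, and the largest fall was that of Vwf (-1.04, SE 0.21). Of the 12, 6 had an unadjusted p under 0.05, 0 were called by edgeR and 2 by DESeq2. With the term for animal numbers edgeR called 11 of the 12 as lower, against 7.24% of all tested genes, and with the immediate early covariate it called 6, against 2.69% of all tested genes in either direction. With the endothelial genes as a covariate the log2 fold change was -0.79 for Thbd (edgeR adjusted p = 0.138) and -0.44 for Nos3 (edgeR adjusted p = 0.101). For S1pr1, one more KLF2 target, it was 0.011 with the covariate and -0.47 without it. Thbd was lowest in CSF1 OE mouse 1936 (18.7 CPM), whose endothelial sum of 1247 CPM was the highest of the CSF1 OE mice. The part of endothelial cells in these differences was not tested.

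Ccl5, the chemokine gene that KLF13 activates in T cells, had the opposite direction. It had 9, 7, 1 and 10 counts in control libraries and 24, 40, 54 and 13 in CSF1 OE libraries, or 0.0756 to 0.605 and 1.151 to 3.68 CPM, so that every CSF1 OE mouse was above every control mouse. The log2 fold change was 2.43 (SE 0.54, edgeR adjusted p = 0.0753), while that of Klf13 was 0.15. T and NK cell genes summed to at most 0.885 CPM in any library. Lgals3, which is repressed by KLF3 in other cells, had 4.03 to 7.75 CPM in controls and 6.82 to 19.9 CPM in CSF1 OE mice (log2 fold change 1.10, SE 0.36, edgeR adjusted p = 0.186). Tfap2a, the gene for which KLF12 was named as a repressor, had at most 0.651 CPM in any library and was not tested.

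In endothelial cells the kinases MEK5 and ERK5 and the MEF2 factors induce Klf2 and Klf4, and the 7 genes of this route were compared. Their summed level was 1389 to 1636 CPM in controls and 1551 to 1778 CPM in CSF1 OE mice. Of the 7, 4 were lower and 3 higher, 0 were called by edgeR or DESeq2, and 1, Mef2a, had an unadjusted p under 0.05. Such an unadjusted p was found for 16.5% of all tested genes. Mef2a had 498 to 626 CPM in controls and 617 to 713 CPM in CSF1 OE mice (log2 fold change 0.28, SE 0.10, edgeR adjusted p = 0.235). The largest fall was that of the kinase gene Map3k3 (-0.16, SE 0.12), and Mapk7, which encodes ERK5, stood at -0.079 (SE 0.080).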

How the data were processed

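CD11b+ cells of 4 CSF1 OE mice and 4 controls were sequenced as TruSeq RNA v2 libraries, which do not mark the strand, on 1 sequencing lane. The authors mapped the reads to mm10 with Bowtie (1.0.0 in the submitters' processing notes) and made the deposited expected counts per gene symbol with RSEM (1.2.7), with 20.8% to 26.5% of values per library not being exactly whole (a tolerance of 0). A second deposited table, a normalized signal that the authors obtained with 1 size factor per mouse, served as an alternative. Groups came from the strain labels, and each library is 1 mouse.

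Expected counts were rounded and fitted over all genes with edgeR 4.0.16 in R 4.3.3 (TMM, filterByExpr, glmQLFit, glmQLFTest, Benjamini-Hochberg adjustment). The study's own method, EBSeq, was not run. SE is the absolute log2 fold change over the square root of F, and log2 CPM used a prior count of 2. The scripts were tested on simulated data. Exon lengths came from GENCODE M21. Alternatives used DESeq2 1.42.0 and limma 3.58.1 (pseudocount of 1). Correlations used all 576 assignments of mice within genotype, with Benjamini-Hochberg adjustment.

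The members, gene lists and tests were chosen with earlier results of these data known. Named genes are all members, the largest rise and fall of each list, called genes, and the 5 genes most like Klf12. Other genes, such as Jag1, Slc9a3r2, Nos3, Thbd, S1pr1, Lgals3, Tfap2a, Klf11, Klf15, Sp1, Ctbp1, Mapk7, Nr4a2 and the marker genes, were chosen after their values were seen.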

Additional observations from a re-analysis of the deposited data

Results flagged for a closer look

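In 3 of the 18 groups of 4 mice formed by the 9 genes and the 2 genotypes, 1 mouse lay apart from the other 3 by more than Dixon's 95% critical value for the ratio of its gap to the range. Chance alone marks about 1 in 20 groups. Klf12 in CSF1 OE mouse 1936 was 4.16 CPM, below the other 3 CSF1 OE mice. Klf3 in control mouse 1934 was 83.6 CPM, below the other controls. Klf7 in CSF1 OE mouse 1931 was 14.9 CPM, below the other CSF1 OE mice. The 3 values belong to different mice.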

How the results depend on the processing

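The difference of Klf12 stayed negative in all 19 alternatives. It was no longer called with upper-quartile factors (log2 fold change -1.09), no filter on low counts or a robust prior (-1.07 in each), the endothelial covariate (-1.19) or the heat shock covariate added after seeing the data (-1.08). Without 1 mouse in turn it ran from -1.16 to -0.98 and was called in 0 of 8 fits. The number of members called was accordingly 0 in each of these fits, and it was 2 with the term for animal numbers, which added 1 of the other 8 members, Klf9 (-1.11). The sign turned for Klf3 with animal numbers (0.17), with the immediate early covariate (0.0067) and without CSF1 OE mouse 1932 (0.024, within -0.21 to 0.024 over the mice left out). With the heat shock covariate it turned for Klf2 (0.0032), Klf6 (0.068) and Klf13 (-0.043). It turned for Klf9 with the endothelial covariate (0.35) and for Klf13 without CSF1 OE mouse 1931 (-0.10, within -0.10 to 0.30 over the mice left out). Over all genes 59 were called, against 427 by DESeq2, 19 with upper-quartile factors, 105 by limma, 1274 with animal numbers, 360 with the immediate early, 103 with the endothelial and 9 with the heat shock covariate. Without 1 mouse in turn, from 3 to 164 were called, the most when control 1827 and the fewest when control 1872 or 1874 was left out. Of the KLF target genes, 3 were called by DESeq2, 4 in the fit with animal numbers and 3 in that with the immediate early covariate, and Ccl5, Nos3 and Thbd were among the genes called in each of these fits. The cause of these changes was not tested. No paired analysis was possible because the genotypes share no animal number. Family members with too few counts were not tested.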
